A study of Mus musculus with 2 samples.

Results

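The 44 genes described here encode chromatin regulators and cohesin factors, and were taken by symbol from a fixed list of writers, erasers, remodellers and loop factors. All 44 were found among the 21728 protein-coding gene symbols of the GENCODE M21 mouse annotation on chromosomes 1 to 19 and X. The data are DNase-seq, in which the enzyme DNase I cuts open chromatin and the cut sites are sequenced, from whole embryos of the B6NCrl mouse strain. Embryos were 11 days old, healthy and untreated as far as the labels say, with males and females pooled. Both libraries belong to this 1 group and come from separate biosamples that share a donor entry, so replicate 1 and replicate 2 measure the spread between embryo pools and no contrast between conditions exists. The replicates gave 204697 and 231103 peaks of 150 bp and 179603 and 197152 hotspots, the broader regions of enriched cutting. Peaks are ranked by a score with whole values of 1 to 150, for which the files state no formula, and each hotspot has a −log10 q value with a ceiling of 100. The depth behind each value is unknown, since the lists hold no read counts.

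The genes fall into 7 classes. Polycomb repressive complex 2 (PRC2) places the silencing methyl mark on lysine 27 of histone H3, and Polycomb repressive complex 1 (PRC1) ubiquitinates histone H2A and compacts the marked chromatin. The Kmt2 enzymes of the trithorax group methylate lysine 4 of histone H3 at active promoters and enhancers, and Kdm6b removes the Polycomb methyl mark. SWI/SNF and CHD remodellers move nucleosomes with the energy of ATP, the Dnmt and Tet enzymes write and oxidise DNA methylation, the acetyl group is placed, removed and read by Ep300 and Crebbp, Hdac1 and Hdac2, and Brd2, and CTCF and cohesin fold the genome into loops. Most of these proteins are used in nearly every embryonic cell, and loss of many of them disturbs patterning of the body axis, heart, limbs or brain.

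Whole embryos mix many cell types, so a peak present in fewer cells and a peak weaker in every cell cannot be told apart. Promoter peaks were present in both replicates at all 4 neural, all 3 mesenchyme, all 3 somite and muscle, all 3 heart and all 3 endoderm markers. Endothelial Cdh5 and erythroid Gata1 had one in replicate 2 alone, whereas the other endothelial and erythroid markers had one in both. Neither replicate had a promoter peak at the 3 trophoblast markers or at the pancreatic genes Cpa1 and Ctrb1, and the kidney gene Umod had one in replicate 2 alone.

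Several promoter peaks of these genes carried the letters of an E2F motif, the site class of the cell cycle factors E2F. The search used TTTCCCGC or TTTGGCGC on both strands of peaks shared by the replicates. The letters occurred in 7 of 136 member promoter peaks (5.15%), against 1.35% of 29375 shared promoter peaks of all genes. The motifs were chosen with earlier results of these data known. Of those searched in promoter peaks, E2F had the largest excess of the member share over that of all genes. The difference was not tested and rests on these 7 peaks. The 7 peaks lay at Suz12, Phf19, Dnmt1, Stag1, Nipbl and Arid1a, the last with a pair of them. A match describes the letters and is not evidence that a factor bound. One peak each of Suz12, Stag1, Nipbl and Phf19 is shown, chosen after the search from the 6 that overlap no annotated untranslated region, with the E2F letters in capitals. All sequences here are GRCm38 (mm10), 5′ to 3′ on the strand of the gene. The Suz12 peak lies at chr11:79992876-79993025 on the plus strand, the Stag1 peak at chr9:100643296-100643445 on the plus strand, the Nipbl peak at chr15:8444616-8444765 on the minus strand and the Phf19 peak at chr2:34914176-34914325 on the minus strand.
Suz12: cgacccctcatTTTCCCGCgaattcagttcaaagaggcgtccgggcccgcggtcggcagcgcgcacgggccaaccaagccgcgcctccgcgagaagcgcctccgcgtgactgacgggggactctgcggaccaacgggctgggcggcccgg
Stag1: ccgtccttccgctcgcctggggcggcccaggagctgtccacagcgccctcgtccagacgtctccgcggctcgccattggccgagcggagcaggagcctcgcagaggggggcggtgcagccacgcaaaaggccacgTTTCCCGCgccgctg
Nipbl: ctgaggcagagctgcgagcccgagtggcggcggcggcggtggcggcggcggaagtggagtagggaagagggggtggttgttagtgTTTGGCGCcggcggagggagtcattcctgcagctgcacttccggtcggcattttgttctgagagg
Phf19: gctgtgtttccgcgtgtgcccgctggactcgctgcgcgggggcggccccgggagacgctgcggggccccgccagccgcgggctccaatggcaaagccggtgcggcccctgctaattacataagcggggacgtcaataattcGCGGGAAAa

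The first 3 carry the letters on the strand of the gene, at bases 12 to 19 of the Suz12 peak, 136 to 143 of the Stag1 peak and 86 to 93 of the Nipbl peak. In the Phf19 peak they lie on the other strand, at bases 142 to 149. The GC content of these peaks was 72.0% at Suz12, 73.3% at Stag1, 66.0% at Nipbl and 68.7% at Phf19. Apart from ETS letters, other promoter motifs had shares nearer to those of all promoter peaks. SP and KLF letters (GGGCGGG) stood in 29.4% of member peaks against 28.8% of all, NFY letters (CCAATNNG or CCAATNNC) in 13.2% against 14.9%, NRF1 letters (GCGCANGCG) in 8.09% against 6.18% and YY1 letters (AANATGGC) in 4.41% against 3.36%. ETS letters (CCGGAAG) had a lower share, in 6 member peaks (4.41%) against 8.04% of all. CREB letters (TGACGTCA) stood in 1 member peak (0.735%) against 1.70%. Both strands were searched for each, and different motifs can overlap in 1 peak.

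CTCF letters were searched as the end of the CTCF motif, CAGGGGGC, CAGAGGGC, CAGGTGGC or CAGATGGC, and the same 4 with T as the first base. They were found in 12 member promoter peaks (8.82%, against 9.89% of all) and in 66 of 461 member distal peaks (14.3%, against 15.6% of 125448). They are shown in capitals for 2 distal peaks. One lies 14.0 kb upstream of Ctcf itself, inside Agrp (chr8:105622516-105622665, plus strand), and one 18.6 kb upstream of Kdm6b, inside Dnah2 (chr11:69432156-69432305, minus strand).
Ctcf: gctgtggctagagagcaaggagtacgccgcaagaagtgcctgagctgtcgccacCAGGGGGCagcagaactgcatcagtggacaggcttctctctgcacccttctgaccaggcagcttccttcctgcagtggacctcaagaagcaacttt
Kdm6b: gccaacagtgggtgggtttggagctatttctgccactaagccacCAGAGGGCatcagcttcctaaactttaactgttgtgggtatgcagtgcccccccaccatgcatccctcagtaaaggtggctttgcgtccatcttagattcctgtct

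The letters lie on the strand of the gene in both, at bases 55 to 62 of the Ctcf peak and 45 to 52 of the Kdm6b peak. The distal peak upstream of Ctcf scored 111 in replicate 1 and 118 in replicate 2, and that upstream of Kdm6b 107 and 116.

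Every one of the 44 genes had a peak near at least 1 annotated start in both embryo pools. A promoter peak, here a peak with an edge within 500 bp of any annotated transcription start site (TSS), was present at 44 of 44 in replicate 1 and at 44 of 44 in replicate 2. Over all protein-coding genes the share was 71.2% in replicate 1, 72.1% in replicate 2 and 70.3% in both. At principal starts alone 43 members had a peak in both replicates, Tet1 being the one without. At the most upstream TSS alone the count was 39. A promoter hotspot at the ceiling in both replicates was found at 43 members (97.7%), against 65.3% of all genes. Among the 15280 genes with a promoter peak in both replicates the share was 92.5%, closer to that of the members. The exception was Kdm6b, whose hotspot had a −log10 q of 5.70 in replicate 1 and of 100 in replicate 2. Base composition moved with this: 31 members lie among the 30% of all genes with the highest CpG ratio (observed over expected) around the most upstream TSS, and 99.3% of the genes in that group had a promoter peak in both replicates. The part of CpG content in the members' count was not tested.

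Promoters of these genes also ranked high among promoters. The best promoter peak had a median score of 136 in replicate 1 and 139 in replicate 2, against 125 and 130 for the 15280 genes with a promoter peak in both. As a percentile among the genes with a promoter peak in the same list, averaged over both replicates, the median member stood at 78.3. Members ranged from 21.2 (Kdm6b) to 99.9 (Stag1). A mean percentile of 90 or more was reached by 9 members (20.5%), against 6.12% of all genes and 8.70% of the 15280 genes with a promoter peak in both replicates. Hotspots over the promoters, intersected between the replicates, had a median width of 1864 bp. It was 1100 bp over all genes that have such a hotspot. The best peak and the widest hotspot are taken over all TSSs of a gene, and the members have a median of 4 separate TSS clusters where all genes have 2.

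**Figure D1:**
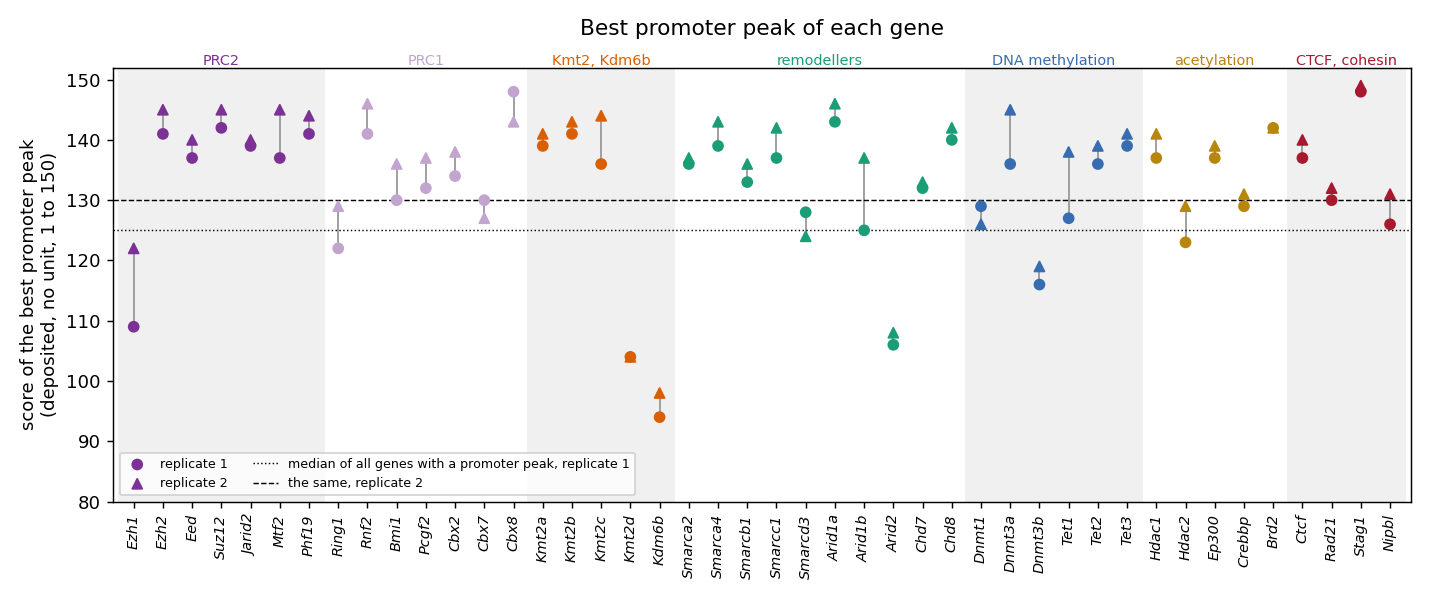
Score of the best promoter peak (y axis, from 80) of each of the 44 genes (x axis, grouped by class) in replicate 1 and replicate 2, with dotted and dashed lines at the medians of all genes that have a promoter peak in replicate 1 and 2. Stag1 is highest, at 148 and 149, and Kdm6b lowest, at 94 and 98, and most members lie above the medians of all genes.

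PRC2 had the highest class median when the best peak over all starts was taken, 139 in replicate 1 and 144 in replicate 2, with a median percentile of 88.7. At principal starts alone its medians were 137 and 140, those of the acetylation class 137 and 139 and those of the trithorax class 136 and 141, so this order depends on the starts used. Suz12, the subunit that holds the complex together, scored 142 and 145 (percentile 95.2). Ezh2, the catalytic methyltransferase of dividing cells, scored 141 and 145 (percentile 94.1). Ezh1, its paralog, known for a role in cells that no longer divide, scored 109 and 122 (percentile 34.5). In both replicates the Ezh1 promoter was therefore below that of Ezh2 by more than the replicates of either gene differed. The accessory subunits Phf19 and Mtf2, Polycomb-like proteins that help recruit the complex to CpG islands, scored 141 and 144, and 137 and 145, but the Phf19 value comes from the start of a non-coding transcript and its principal start scored 84 and 91. Eed, which binds the methyl mark, scored 137 and 140, and Jarid2, a recruiting cofactor, 139 and 140.

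PRC1 stood lower, with medians of 132 and 137 and a median percentile of 68.5. Its catalytic subunits differed. Rnf2 (RING1B), the main H2A ubiquitin ligase of the embryo, scored 141 and 146 (percentile 94.9), whereas Ring1, its paralog, scored 122 and 129 (percentile 47.4). Among the chromodomain subunits that read the methyl mark, Cbx8 scored 148 and 143 (percentile 95.6), Cbx2 134 and 138, and Cbx7 130 and 127 (percentile 53.1). Of these 3, Cbx8 was the highest in both replicates. The Polycomb RING finger subunits Bmi1 and Pcgf2 scored 130 and 136, and 132 and 137.

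The trithorax class was split between high and low promoters, with medians of 136 and 141. Kmt2b scored 141 and 143 (percentile 91.5), Kmt2a 139 and 141, and Kmt2c 136 and 144. Kmt2d, the main enhancer monomethyltransferase together with Kmt2c, scored 104 in both replicates (percentile 25.7), although its promoter hotspot was at the ceiling in both. Kdm6b scored 94 and 98, the lowest of the 44 genes in both replicates. Its intersected promoter hotspot was 263 bp wide and the CpG ratio around its most upstream TSS was 0.17, against a member median of 0.81.

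Remodeller promoters had medians of 134 and 137. Arid1a, the DNA-binding subunit of the BAF form of SWI/SNF, was the highest of the class at 143 and 146 (percentile 97.0). Arid2, which marks the PBAF form, scored 106 and 108 (percentile 27.6), and Arid1b, the alternative to Arid1a, 125 and 137. The ATPase Smarca4 (BRG1) scored 139 and 143, and its paralog Smarca2 (BRM) 136 and 137. The core subunits Smarcb1 and Smarcc1 scored 133 and 136, and 137 and 142, and Smarcd3, a subunit known from heart and muscle, 128 and 124. Chd8 scored 140 and 142, and Chd7, the gene mutated in human CHARGE syndrome, 132 and 133.

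The DNA methylation genes had medians of 132 and 138. Dnmt3a scored 136 and 145 (percentile 87.2), at an inner start, and Dnmt3b, the other de novo methyltransferase, 116 and 119 (percentile 36.2). The order turned at principal starts, where Dnmt3a scored 95 and 107, below Dnmt3b in both replicates. The maintenance enzyme Dnmt1 scored 129 and 126. Among the dioxygenases that oxidise methylcytosine, Tet3 scored 139 and 141, Tet2 136 and 139, and Tet1 127 and 138. At principal starts Tet3 scored 123 and 128, below Tet2, whose scores stayed the same, and Tet1 had no peak.

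Of the acetylation genes, Brd2, a bromodomain reader, was highest, at 142 and 142 (percentile 90.9). Its intersected promoter hotspot of 4907 bp was the widest of the 44, at the 99.9th percentile of all genes that have one. The deacetylase Hdac1 scored 137 and 141 and its paralog Hdac2 123 and 129 (percentile 48.2). The acetyltransferases Ep300 and Crebbp scored 137 and 139, and 129 and 131. Among the loop factors, the cohesin subunit Stag1 scored 148 and 149, the highest of all members, the insulator protein gene Ctcf 137 and 140, Rad21 130 and 132, and Nipbl, which loads cohesin and is mutated in human Cornelia de Lange syndrome, 126 and 131.

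Paralogs differed in score within several pairs. At Ezh2 and Ezh1, Rnf2 and Ring1, Dnmt3a and Dnmt3b, Hdac1 and Hdac2, Arid1a and Arid1b, Smarca4 and Smarca2, and Ep300 and Crebbp, the lower of the first gene's 2 scores exceeded both scores of the second. For Dnmt3a and Dnmt3b this holds for the inner Dnmt3a start and reverses at the principal one, as given above. These 7 pairs were picked for their kinship and after their values were seen. The score has no stated zero, so no ratio was formed, and no test between genes was run on 2 libraries.

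Many of these genes had peaks near more than 1 cluster of annotated starts. TSSs were joined into a cluster where gaps were at most 500 bp, and a cluster was counted as open with a peak within 500 bp in both replicates. A peak within 500 bp of 2 clusters counted for both, so 2 open clusters need not have separate peaks. At Ring1 the only peak of the inner cluster (122 and 129) also counted for the first. At least 2 open clusters were found at 27 members (61.4%), against 18.4% of all genes and 26.1% of genes with a promoter peak in both replicates. Clusters without a protein-coding transcript were counted too, for members and for all genes. Ezh1, Phf19, Ring1, Rnf2, Cbx2, Smarcb1, Dnmt3b, Tet1, Hdac1 and Ep300 reached 2 only through such a cluster. Members had more annotated clusters to begin with. Of the 41 members with at least 2 clusters, 27 had at least 2 open (65.9%), against 30.5% of all such genes, while 85 of 218 member clusters were open (39.0%), against 39.8% of all clusters. With a gap of 2000 bp, a setting chosen after seeing the data, the count was 18 members (40.9%), against 11.8% of all genes. At that gap clusters lie too far apart for 1 peak to count for 2 of them.

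**Figure D2:**
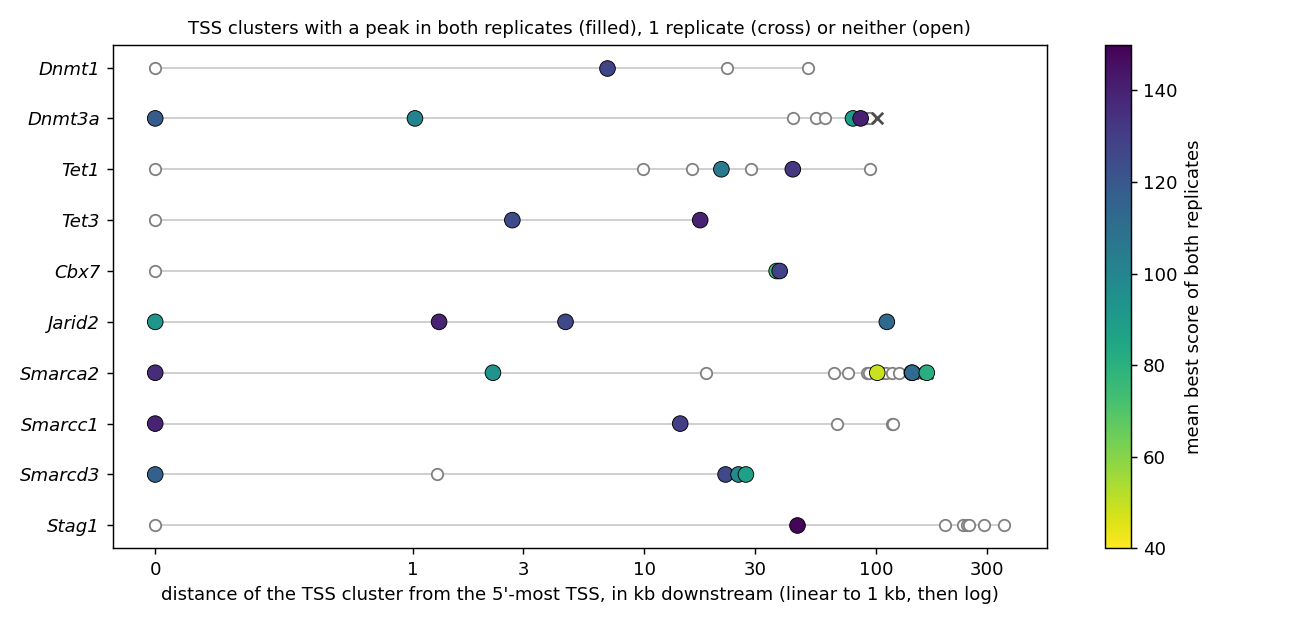
TSS clusters of 10 genes (y axis) by distance downstream of the most upstream TSS in kb (x axis, linear to 1 kb and logarithmic above). Clusters with a peak in both replicates are filled by the mean best score, those with a peak in 1 replicate are crosses and those with none are open circles. At Dnmt1, Tet1, Tet3, Cbx7 and Stag1 the most upstream cluster has no peak in either replicate and an inner one has a peak in both.

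At 5 genes the most upstream annotated cluster had no peak in either replicate and an inner one was open. The Stag1 peak of 148 and 149 lay at the principal cluster, 45.6 kb downstream of a first cluster without a peak. At Dnmt1, which is known to use a separate start in oocytes, the most upstream cluster had no peak and the principal cluster 6.91 kb downstream had peaks of 129 and 126. At Cbx7 the principal cluster lay 38.4 kb downstream, with scores of 130 and 127, and a cluster at 37.2 kb scored 63 and 83. At Tet3 the principal cluster at 2.69 kb scored 123 and 128, and a cluster at 17.4 kb scored higher in both replicates, at 139 and 141. The CpG ratio around the most upstream TSS was below the member median at all 5, at 0.06 for Dnmt1, 0.13 for Tet3, 0.15 for Tet1, 0.39 for Stag1 and 0.46 for Cbx7.

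Tet1 had peaks near annotated starts other than its principal one. Its clusters at 0, 9.88 (principal), 16.0, 29.0 and 94.5 kb had no peak in either replicate. The cluster at 21.5 kb scored 100 and 110, and the cluster at 43.7 kb, the start of a non-coding transcript, scored 127 and 138. Dnmt3a, whose shorter isoform is known to start from an inner promoter, had 4 open clusters. The first scored 117 and 120, the principal at 1.02 kb 95 and 107, and one at 79.4 kb 85 and 93. A cluster at 85.7 kb, the start of the transcripts Dnmt3a-203 and Dnmt3a-205, scored 136 and 145, above the other 3 in both replicates. Another cluster at 101 kb had a peak of score 34 in replicate 1 alone. The inner promoter peaks of Dnmt3a (chr12:3891496-3891645, plus strand) and Tet1 (chr10:62865316-62865465, minus strand) follow, because they lie near annotated starts away from the principal ones. Whether transcription begins there was not measured. Capitals mark SP and KLF letters at bases 20 to 26 of the Dnmt3a peak and NFY letters, on the other strand, at bases 69 to 76 of the Tet1 peak.
Dnmt3a: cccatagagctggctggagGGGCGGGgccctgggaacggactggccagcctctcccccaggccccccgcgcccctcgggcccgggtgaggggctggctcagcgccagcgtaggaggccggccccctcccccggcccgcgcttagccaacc
Tet1: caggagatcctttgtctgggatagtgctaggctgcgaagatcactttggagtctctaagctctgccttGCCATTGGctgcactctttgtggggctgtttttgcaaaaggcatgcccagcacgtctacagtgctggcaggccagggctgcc

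The Dnmt3a peak has a GC content of 78.7% and the Tet1 peak one of 55.3%.

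Peaks also lay near inner annotated starts at other members. Some of these starts have no transcript annotated as protein-coding. They are those of Smarca2 at 2.22 and 165 kb, Smarcd3 at 25.5 and 27.4 kb, and Jarid2 at 4.57 kb. The inner starts of Phf19, Ezh1 and Dnmt3b given below are of this kind too. Whether transcription begins at any of them was not measured. Smarca2 had peaks at its first cluster (136 and 137), at 2.22 kb (90 and 97) and at 101 kb (43 and 55). Farther in, it had peaks near 143 kb (110 and 110, and 114 and 110 at a neighbouring cluster) and at 165 kb (76 and 85). Smarcd3 scored 112 and 121 at its first cluster and 128 and 124 at the principal cluster 22.4 kb downstream, with weaker peaks at 25.5 kb (93 and 102) and 27.4 kb (82 and 93). Jarid2 was open at 0 kb (83 and 101), 1.30 kb (139 and 140, principal), 4.57 kb (120 and 132) and 111 kb (105 and 121). At Phf19 a cluster 9.12 kb downstream scored 141 and 144, above the principal cluster at 84 and 91. Smarcc1 scored 137 and 142 at its first cluster and 128 and 132 at the principal one 14.3 kb downstream, and Chd8 scored 140 and 142 and, at 13.3 kb, 136 and 132. Lower inner peaks stood at Ezh1 (25.5 kb, 77 and 80), Chd7 (61.0 kb, 81 and 70), Bmi1 (3.98 kb, 96 and 90) and Dnmt3b (19.9 kb, 73 and 87). No member of the trithorax class or of the CTCF and cohesin class had at least 2 open clusters.

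Starts of other genes were close by at few members. The most upstream TSS of a gene on the other strand lay within 1 kb at 2 of 44 members, against 10.7% of all genes. Smarcc1 had that of Dhx30 at 122 bp and Ctcf that of Agrp at 825 bp, so their promoter peaks cannot be assigned to 1 gene alone. Of the members' promoter peaks, 136 of 150 in replicate 1 were shared with replicate 2 (90.7%, against 86.9% over all genes) and 141 of 164 in replicate 2 with replicate 1 (86.0%, against 83.3%). Unshared ones scored lower, with a median of 50 against 111 in replicate 1 and of 68 against 117 in replicate 2.

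Away from promoters the classes differed more. A distal peak is a peak whose midpoint is over 1 kb from every protein-coding TSS, and it was counted for the gene whose most upstream TSS is nearest, the bases so assigned being the territory of the gene. Peaks of replicate 1 that overlap a replicate 2 peak by at least 1 bp were counted as shared. The members held 461 shared distal peaks, and their median density was 6.35 per 100 kb of territory. It was 4.12 for all genes and 5.15 for genes with a promoter peak in both replicates. With each replicate counted alone the member median was 8.23 ± 1.62 (SD, n = 2) and that of all genes 5.77 ± 0.681 (SD, n = 2). For genes with a promoter peak in both replicates it was 7.10 ± 0.695 (SD, n = 2). Densities above 4.90, the density over all territories together, were found at 26 members (59.1%), against 44.6% of all genes. Above 4.12, the median of all genes, stood 28 members (63.6%). The share was 58.2% among genes with a promoter peak in both replicates, closer to that of the members. No shared distal peak was assigned to 6 members (13.6%, against 29.5% of all genes), namely Suz12, Ring1, Bmi1, Kmt2b, Smarcb1 and Chd8. Among the 15280 genes with a promoter peak in both replicates, 3105 had none. Assignment to the nearest TSS is a rule of distance and does not show which gene a peak acts on.

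**Figure D3:**
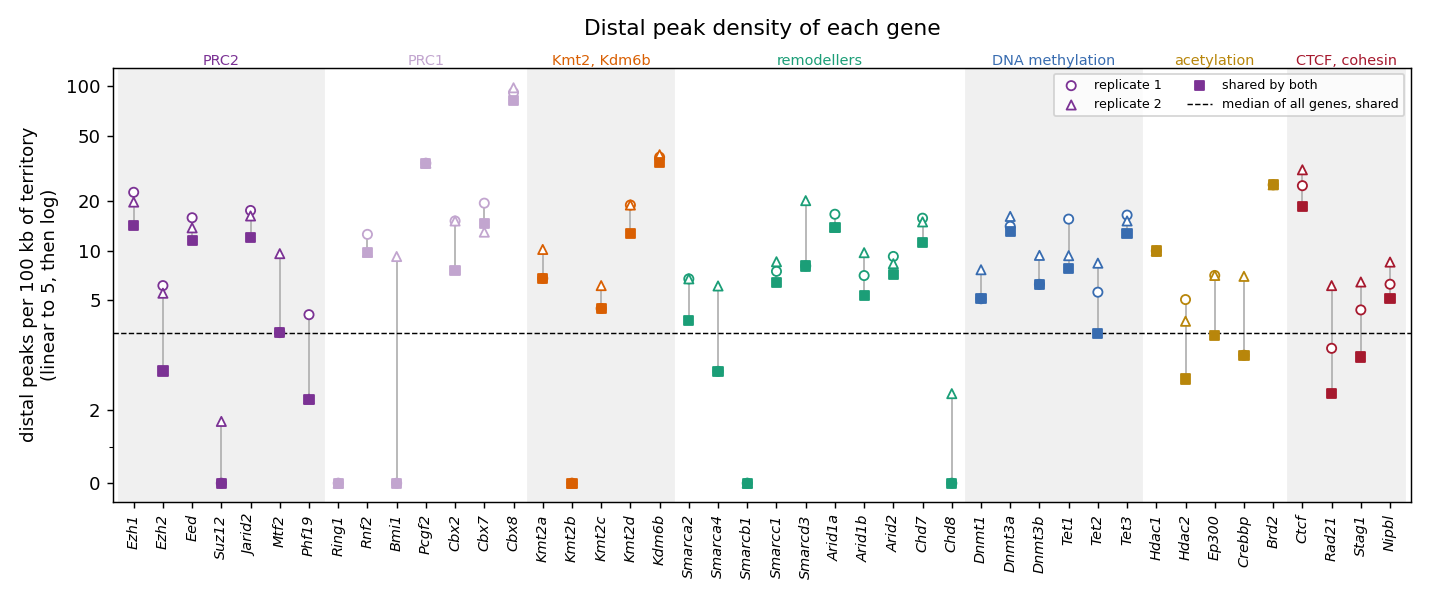
Distal peaks per 100 kb of territory (y axis, linear to 5 and logarithmic above) of the 44 genes (x axis, grouped by class), for replicate 1, replicate 2 and the peaks shared by both, with the median of all genes. Cbx8 is highest, at 91.7, 98.0 and 82.2, and 6 genes have no shared distal peak.

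PRC1 had the highest class median, 9.81 per 100 kb of shared peaks, and 14.1 ± 1.54 (SD, n = 2) over the replicates counted alone. The DNA methylation genes followed with 7.03 and 9.78 ± 0.578, the trithorax class with 6.80 and 8.50 ± 2.40, and the remodellers with 5.89 and 7.88 ± 0.830. CTCF and cohesin had 4.29 and 6.51 ± 1.42, PRC2 4.12 and 7.88 ± 2.46, and the acetylation class 4.05 and 7.09 ± 0. The classes hold 4 to 10 genes, and each spans a wide range. PRC1 runs from 0 to 82.2 and PRC2 from 0 to 14.2. When the better-scoring 50% of each list alone was kept, the median of PRC1 fell to 3.79 and the trithorax class stood higher at 5.10. Over 5 kb from every TSS the trithorax median was 0, the lowest of the 7 classes and below the 2.03 of all genes.

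Cbx8 had the densest territory of the 44. It held 29 distal peaks in replicate 1, 31 in replicate 2 and 26 shared, in 31.6 kb. The shared density was 82.2 per 100 kb, and the highest of any protein-coding gene was 96.4. Of the 26 peaks, 20 lay upstream, 3 inside the gene and 3 beyond its end, and 17 lay within 10 kb of the most upstream TSS. Cbx2, its neighbour on chromosome 11, had 2 shared distal peaks (7.58 per 100 kb). Within 50 kb of the most upstream TSS, a measure that ignores the borders between territories, Cbx2 and Cbx8 had densities of 34 and 38.0.

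The highest-scoring distal peak of the territory of Cbx8, 12.5 kb upstream of its TSS and between genes at chr11:119053356-119053505 (minus strand), scored 143 and 137 and stood at the 98.8th percentile of all peaks. It is shown as the highest-scoring distal peak of the densest territory, with no letters in capitals.
Cbx8: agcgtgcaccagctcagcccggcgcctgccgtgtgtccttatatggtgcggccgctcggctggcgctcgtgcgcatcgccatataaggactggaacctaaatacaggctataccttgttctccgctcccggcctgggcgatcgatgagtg

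The GC content of this peak is 62.0%.

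Kdm6b combined the lowest-scoring promoter peak of the 44 with a dense territory. Its 26 shared distal peaks in 75.4 kb gave 34.5 per 100 kb, with 37.1 in replicate 1 and 38.4 in replicate 2. Of the 26, 9 were at or above the 90th percentile of all peaks by score. Peaks 5.34, 4.40, 3.98 and 2.56 kb upstream scored 134 and 142, 128 and 128, 135 and 139, and 115 and 125. Inside the gene, peaks of intron 1 scored 133 and 138 (2.36 kb downstream) and 122 and 133 (3.74 kb downstream). Every one of these 6 scored above the best promoter peak of Kdm6b, 94 and 98, in both replicates. A total of 11 of the 26 lay inside the neighbouring gene Dnah2.

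Other densities above those of most members came mostly from few peaks. Pcgf2 had 34.1 per 100 kb from 3 peaks in 8.79 kb, all 3 in its intron 1 and none left when peaks had to be over 5 kb from every TSS (the farthest was 5.23 kb from its own). Brd2 had 25.2 from 3 peaks in 11.9 kb, all inside H2-DMa, and 8.42 when the TSSs of all gene types bounded distal peaks. Ctcf had 18.7 from 3 peaks in 16.1 kb, all inside the long annotated span of Agrp. Cbx7 had 14.6 from 9 peaks in 61.7 kb, 8 of them inside the gene, Ezh1 14.2 from 5 in 35.3 kb, and Arid1a 13.9 from 15 in 108 kb.

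The peaks were spread unevenly. With 20 or more shared distal peaks each, 8 members held 288 of the 461 (62.5%), in territories from 31.6 kb (Cbx8) to 861 kb (Arid1b). Jarid2 led with 73 in 609 kb (12 per 100 kb), 107 in replicate 1 and 99 in replicate 2. Of the 73, 59 were upstream, the farthest 469 kb away, and 12 were in intron 1. Chd7 had 41 in 367 kb (11.2 per 100 kb), 14 inside the gene and 22 beyond its end, as far as 279 kb downstream. Its highest, 43.1 kb upstream, scored 134 and 141. Arid1b had 46 in 861 kb (5.34 per 100 kb), with 9 in intron 4, among them a peak 196 kb downstream that scored 140 and 142. Dnmt3a had 25 in 191 kb (13.1 per 100 kb), 15 of them inside the gene. Smarca2 had 27 in 607 kb (4.45 per 100 kb), none at or above the 90th percentile, and Arid2 24 in 335 kb (7.16 per 100 kb), of which 22 were upstream.

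**Figure D4:**
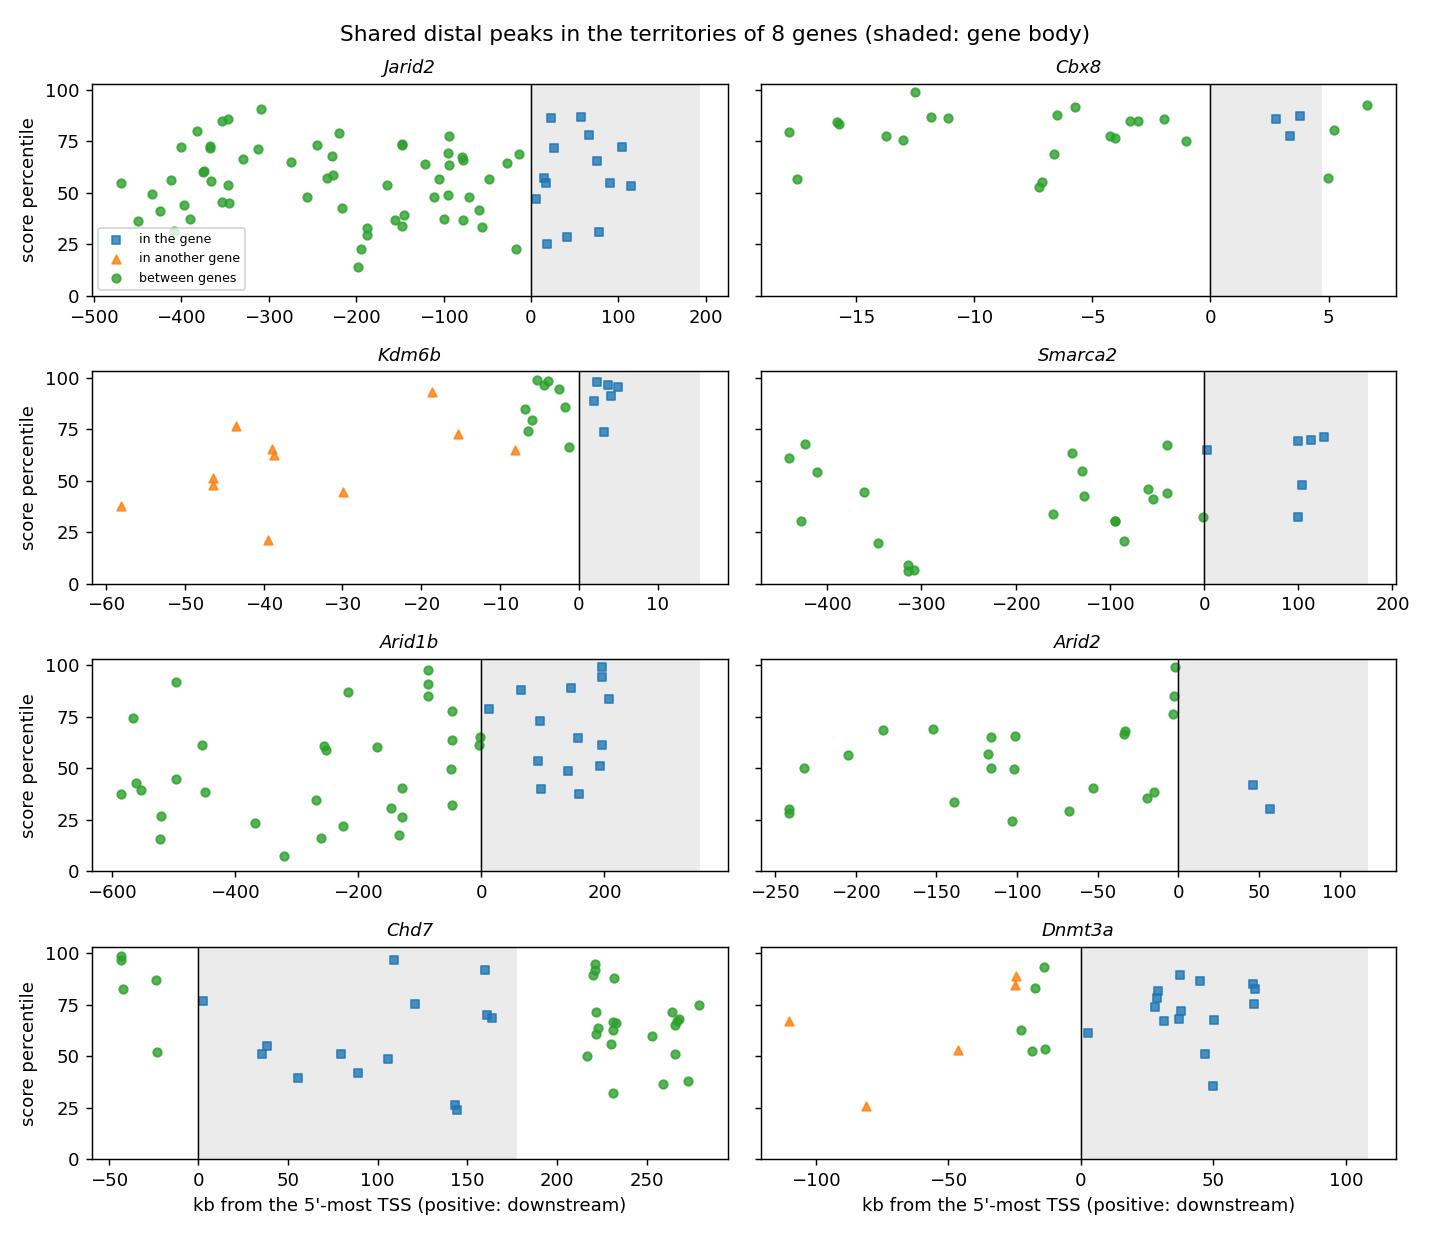
Shared distal peaks of 8 genes by distance from the most upstream TSS in kb (x axis, negative upstream) and mean score percentile among all peaks (y axis), with the gene body shaded and the marker giving the place. The 26 peaks of Cbx8 and the 26 of Kdm6b cluster near the gene, and those of Jarid2 reach 469 kb upstream.

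By class the place of the distal peaks varied. Inside their own gene lay 31.9% of the members' distal peaks, against 31.7% over all genes, and in its first intron 13.2%, against 10.2%. The share inside the own gene was 55.6% for DNA methylation genes, 54.5% for CTCF and cohesin, 39.0% for the trithorax class, 38.3% for PRC1, 27.9% for remodellers, 17.3% for PRC2 and 12% for the acetylation class. Several of these shares moved with 1 gene. Without Stag1, all 8 of whose peaks lay inside it, CTCF and cohesin came to 28.6%, without Cbx8 PRC1 came to 71.4%, and without Kdm6b the trithorax class came to 66.7%. Without Hdac2 the acetylation class came to 18.8%. Among the members' distal peaks 40 (8.68%) were at or above the 90th percentile of all peaks by score, against 4.77% of all distal peaks. Those 40 belong to 16 genes, and 5 genes hold 27 of them. The trithorax class had 11 of 41 (26.8%), of which Kdm6b held 9, and 13.3% without it. Within 500 bp of a non-coding TSS lay 3.04% of the member distal peaks, against 3.50% of all, and 1 of the 40 high-scoring ones, against 11.1% of all high-scoring ones. Within 500 bp of a RefSeq start lay 3 of the 40 (7.50%). That share was not counted over all high-scoring distal peaks, so 7.50% cannot be read as high or low. The median GC content of the 40 was 62.6%, against 53.3% for all 461, and base composition moved with score here, an association whose part was not tested.

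**Figure D5:**
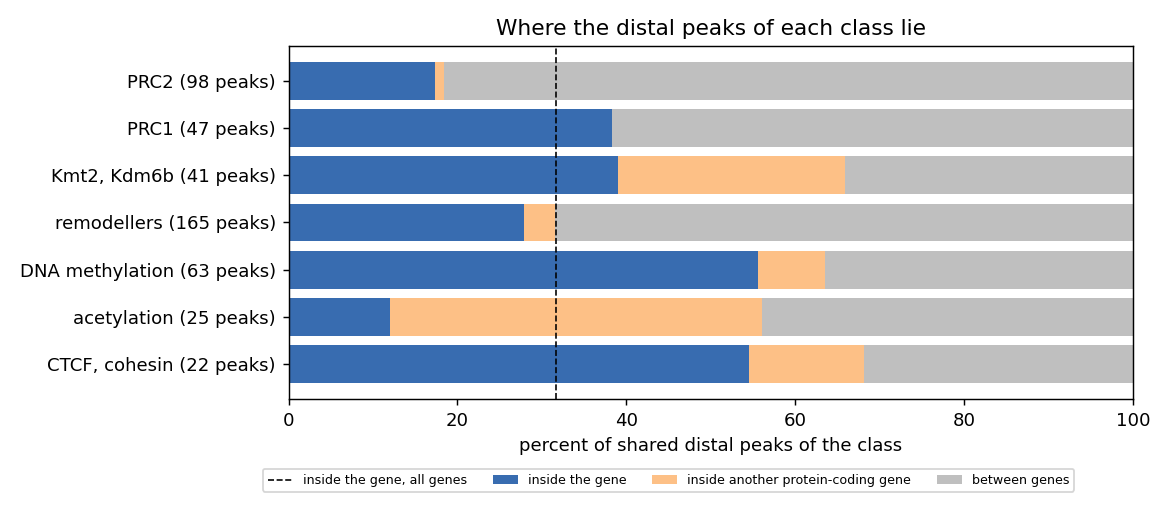
Share of shared distal peaks (x axis, percent) inside their own gene, inside another gene and between genes, for each of the 7 classes (y axis), with a dashed line at the share inside the own gene over all genes (31.7%). DNA methylation and CTCF and cohesin genes have the largest share inside their own gene, at 55.6% and 54.5% (28.6% for CTCF and cohesin without Stag1), and the acetylation class the smallest, at 12%. This order moves with single genes: DNA methylation is at 49.1% without Tet3 and PRC1 at 71.4% without Cbx8.

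In 4 other classes the highest distal peak lay at Nipbl, Crebbp, Dnmt3a and Ezh2. Nipbl had one 1.03 kb upstream (125 and 130), just past the distal limit. Crebbp had one 54.3 kb upstream (111 and 123), Dnmt3a one 14.0 kb upstream (113 and 115) and Ezh2 one 55.6 kb upstream (109 and 104). Motif letters in member distal peaks were near those of all distal peaks. E-box letters (CAGCTG) stood in 19.5% against 18.5%, TEAD letters (GGAATG) in 12.4% against 11.0%, SOX letters (ACAATGG or ACAAAGG) in 6.07% against 7.57%, homeobox letters (TAATTA) in 4.77% against 3.35% and GATA letters (AGATAAG) in 1.95% against 1.33%.

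The other genes of the same complexes, 89 companions, were measured in the same way. A promoter peak in both replicates was found at 87 of 89, and neither replicate had one at Rad21l or Ctcfl, the germline paralogs of Rad21 and Ctcf. The median best score of companions was 132 in replicate 1 and 136 in replicate 2, with a median percentile of 67.7, and at least 2 open clusters were found at 36%. Their median distal density was 5.90 per 100 kb, and 20 had no shared distal peak. The densest were Setd1b, a lysine 4 methyltransferase, at 59.9, and the remodeller Chd3 at 25.4.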

How the data were processed

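Peak and hotspot lists of DNase-seq from whole mouse embryos were analysed for 2 biological replicates of 1 group. Per the file headers and text, the authors derived every list from 1 replicate's filtered alignments to mm10, without pooling. Which aligner and peak caller they used is not given in the sources here. The deposited peaks carry a score with no stated formula, used to rank peaks within a list. Deposited hotspots carry a −log10 q value from 1.30 to a ceiling of 100. Read depth is unknown, so no interval was formed.

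Genes came from GENCODE M21 on GRCm38, with entries of 1 symbol joined. Measures were computed in Python 3.11.15 with numpy 2.4.6 and pysam 0.24.0, drawn with matplotlib 3.10.9 and tested on simulated peaks. Score percentiles of distal peaks were taken among all peaks of each list and averaged. With 1 group of 2 libraries no test was run, and counts and medians in the main setting stand beside those of all genes. All 44 members are named. Of 89 companion genes, those without a promoter peak and the 3 densest were to be named, and of distal peaks the highest-scoring per class, but 1 of each is not reported here. The others named were chosen after their values were seen. Members, classes, companions and motifs were chosen with earlier results of these data known. Alternatives changed the promoter window, TSS choice, score threshold, overlap, distal distance, gene area and replicate. The CTCF and NRF1 letters and the density threshold of 4.90 were set after other forms of them had been seen.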

Additional observations from a re-analysis of the deposited data

How the results depend on the processing

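No paired analysis was possible because there is 1 group and no contrast between groups. The count of members with a promoter peak in both replicates was 44 with windows of 250 and 2500 bp, the better-scoring 50% of each list, hotspots in place of peaks and either replicate alone, and 39 with the most upstream TSS alone, without Cbx7, Dnmt1, Tet1, Tet3 and Stag1. Ceiling hotspots ranged from 38 to 44 and members with at least 2 open clusters from 18 to 28. Changed windows, the most upstream TSS alone, the better-scoring 50% and hotspots in place of peaks were counted here for members alone. Whether members exceed all genes in promoter peaks or ceiling hotspots under those settings was not tested.

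The median promoter percentile of 78.3 became 76.1 (250 bp), 80.4 (2500 bp) and 69.0 (most upstream TSS alone), and 77.3 to 77.8 with 1 replicate left out. The median distal density of the members, 6.35 per 100 kb, became 3.36 over 5 kb from TSSs, 2.94 with the better-scoring 50% and 8.0 within 50 kb of the TSS. The medians of all genes under those settings were 2.03, 1.09 and 5.0. With 1 replicate left out, which counts unshared peaks too, it was 7.08 to 9.37.

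By class, over 5 kb gave 7.58 for PRC1, 0 for the trithorax class, 4.20 for remodellers, 4.50 for DNA methylation and 2.31 for CTCF and cohesin. The better-scoring 50% gave 3.79 for PRC1, 2.98 for remodellers, 3.90 for DNA methylation, 2.33 for acetylation and 2.50 for CTCF and cohesin. Within 50 kb the medians were 12 for PRC1, 7.50 for remodellers, 8.50 for DNA methylation, 4.0 for acetylation and 9.0 for CTCF and cohesin. An overlap of 75 bp gave 6.25 for DNA methylation. With 1 replicate left out the ranges were 6.15 to 9.62 for PRC2, 13.0 to 15.2 for PRC1, 6.80 to 10.2 for the trithorax class, 7.30 to 8.47 for remodellers, 9.37 to 10.2 for DNA methylation, 7.09 to 7.09 for acetylation and 5.51 to 7.51 for CTCF and cohesin. Bounding distal peaks by the TSSs of all gene types, joining TSSs over 2000 bp and taking principal starts alone were chosen after seeing the data. The cause of these shifts was not tested. Against the median of all genes, the trithorax class went from above (6.80 against 4.12) to below over 5 kb (0 against 2.03). Acetylation was just below that median in the main setting (4.05 against 4.12) and below it within 50 kb (4.0 against 5.0). Under every other density setting it was above, for instance over 5 kb (4.05 against 2.03) and with replicate 2 alone (7.09 against 6.26). PRC2 equalled the median of all genes at 4.12 in the main setting and was below within 50 kb (4.0 against 5.0). It too was above under every other density setting. A longer form of the CTCF letters, searched first, put the member share in promoter peaks above that of all promoter peaks, where the shorter form reported here puts it below, so no direction is read from it.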
